A study of Canis lupus familiaris with 8 samples.

Results

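The miRNAs described here are those of 2 transcript clusters of smooth muscle cells and fibroblasts, miR-143 with miR-145 and miR-199 with miR-214, as measured in dog serum. They were taken by name: every miRNA listed on the array as canine (cfa) or murine (mmu) miR-143, miR-145, miR-199 with any letter, or miR-214, with or without an arm suffix and without the other-strand (star) names. Of the 1224 miRNA names analysed, 6 met the rule, namely cfa-miR-143, cfa-miR-145, cfa-miR-199, cfa-miR-214, mmu-miR-199a-3p and mmu-miR-199a-5p. The names mmu-miR-143, mmu-miR-145, mmu-miR-214 and mmu-miR-199b were not analysed here.

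miR-143 and miR-145 are made from 1 primary transcript, are abundant in vascular and visceral smooth muscle, and are known for holding smooth muscle cells in their contractile state. miR-199a and miR-214 also come from a shared transcript, on the opposite strand of an intron of the dynamin gene DNM3, and are typical of mesenchymal cells, fibroblasts included. Circulating forms of these miRNAs are found in serum, where the cells that released them are not known, so that fewer releasing cells and less RNA from each cell cannot be told apart. In the dog gene table used here, MIR145 and MIR143 were neighbours with 0 genes between them, MIR199-2 and MIR214 were neighbours with 0 genes between them, and both of the latter lay within the span of DNM3. The table held 3 MIR199 genes, and the name cfa-miR-199 does not say from which of them or from which arm its target comes.

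Serum of 8 client-owned Doberman Pinschers, aged 7 to 11 years by the labels, was hybridized to 8 one-colour arrays on 1 slide. The DCM group held 4 dogs with dilated cardiomyopathy (DCM), a disease in which the ventricle widens and contracts poorly, in its occult stage without outward signs of heart failure (arrays DoCM5 to DoCM8), and the control group held 4 healthy dogs (Con1 to Con4). All dogs of the DCM group were under treatment with pimobendan, an ACE inhibitor and either sotalol or amiodarone when blood was drawn, with irregular dosing in the dog of DoCM8, so that disease and treatment cannot be told apart. The study set DoCM8 aside because its expression levels departed from those of the other samples, and left the cause of this unexplained. It also describes the dog of DoCM8 as younger than the labelled range. Following that exclusion, the comparison of the groups was made on 7 arrays and then on all 8.

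Between 10817 and 14000 features per array were well above background and 0 were saturated. The slide had 2 rows, one filled with DCM and one with control arrays, and row and group therefore cannot be told apart; each column held 1 array of each group. Values are given as glog2, the vsn-calibrated signal on a scale that equals log2 for bright probes and flattens near 0. A signal of 0 corresponded to a glog2 value of 1.82 on DoCM5 and of 0.29 to 0.70 on the other arrays, so that values near the background read higher on DoCM5.

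The first question was which of these miRNAs could be measured in serum. A feature was kept when the scanner software called it well above background on 2 or more of the 4 arrays in the DCM or in the control group, and a name with at least 1 kept feature was called detected. By this rule 5 of the 6 names were detected, against 438 of all 1224, and mmu-miR-199a-5p was not. Each of the 6 names had 40 features, divided among 2 or 3 different probes.

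mmu-miR-199a-3p, which carries the strand of miR-199a that is the more abundant in many tissues, was well above background on all 40 features of all 8 arrays. cfa-miR-214 had 32, 36, 36 and 38 such features on the DCM arrays, in rising order, and 36, 39, 40 and 40 on the control arrays, and all 40 were kept. Both were thus measured on every array.

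cfa-miR-199 kept 26 features, all from 2 of its 3 probes. Its features above background numbered 26, 24, 25 and 26 on DoCM5 to DoCM8 and 29, 21, 26 and 18 on Con1 to Con4, and at least 50% of the kept features were above background on 8 of 8 arrays. The third probe kept 0 of its 14 features.

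cfa-miR-143 kept 20 features, all of 1 probe, whereas its other probe had 0 features above background on every array. The counts were 12, 9, 19 and 20 on DoCM5 to DoCM8 and 20, 4, 18 and 3 on Con1 to Con4. At least 50% of the kept features were above background on 5 arrays, 3 of the DCM group and 2 of the control group, so that this miRNA lay near the limit of detection in both groups.

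cfa-miR-145 kept 37 features. Of its 40 features, DoCM5 to DoCM8 had 11, 21, 4 and 16 above background, and Con1 to Con4 had 37, 24, 37 and 25. The counts summed to 123 in the control group and 52 in the DCM group. The share of all names that differ as much by this count was not computed. At least 50% of the kept features were above background on 1 of 4 DCM arrays, DoCM6, and on 4 of 4 control arrays.

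mmu-miR-199a-5p, from the opposite arm of the same hairpin as mmu-miR-199a-3p, had 12 features above background on DoCM5 and 18 on Con1 and 0 on each of the other arrays. All of these belonged to 1 of its 2 probes, whose mean signal was 8.49 on DoCM5 and 9.94 on Con1 and between 1.53 and 3.73 elsewhere. DoCM5 and Con1 stood in the same column of the slide, and the part of that position was not tested. The scanner software's own call per miRNA marked this name as detected on the same 2 arrays, and the 5 other members on all 8.

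Of the star names of these hairpins, mmu-miR-143*, mmu-miR-145* and mmu-miR-214* had at most 1 feature above background on any array. mmu-miR-199b* kept 3 features, and it too was highest by count on DoCM5 and Con1, with 19 and 14 features above background, against 0 to 2 on the other arrays. Its log2 fold change over 7 arrays was 0.24 (standard error 0.53; two-sided exact permutation p = 0.771).

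**Figure D1:**
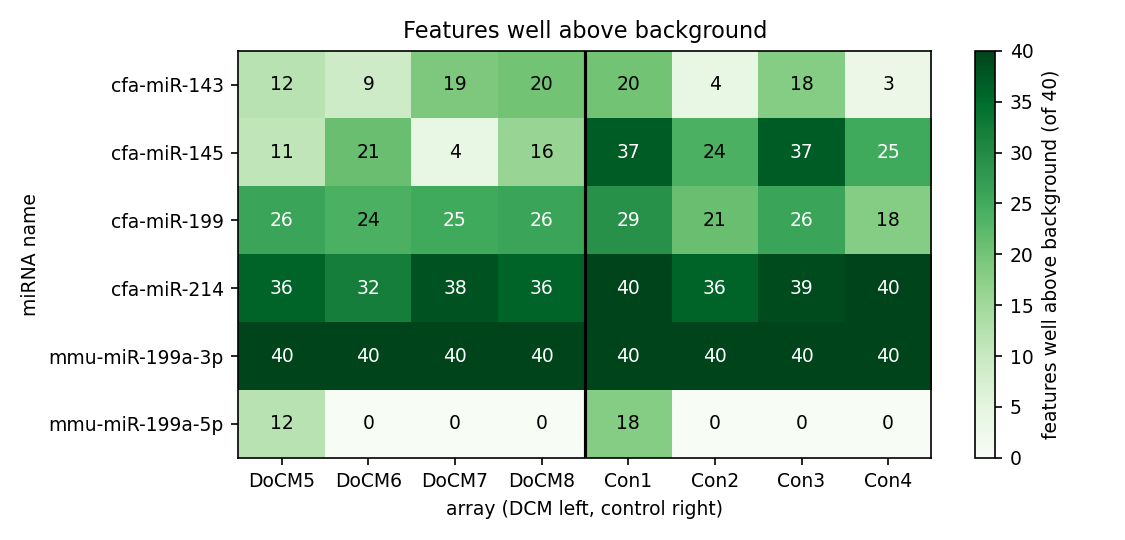
Number of features well above background, of 40 per name, for each of the 6 miRNA names (rows) on each of the 8 arrays (columns; DCM left of the line, control right). The row of mmu-miR-199a-3p holds 40 throughout, that of mmu-miR-199a-5p holds values above 0 only on DoCM5 and Con1, and in the row of cfa-miR-145 the control arrays hold 24 to 37 and the DCM arrays 4 to 21.

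The second question was whether these miRNAs differed between dogs with DCM and healthy dogs. Only cfa-miR-145 separated the groups, being lower on every DCM array, and the difference did not pass the limits of the study's methods on the 7 arrays, an unadjusted p under 0.05 with a fold change over 1.5. Of the 5 detected members, 0 passed both limits on the 7 arrays and 0 on all 8, against 2.51% and 3.88% of all 438 names, and 0 passed the adjusted limit, as did 0% of all names in both sets. An unadjusted p under 0.05 was found for 0 members on the 7 arrays and 1 on all 8, and for 11 and 18 of all names.

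cfa-miR-145 had glog2 values of 2.54, 2.49, 2.65 and 2.58 on DoCM5 to DoCM8 and of 2.89, 3.19, 3.2 and 3.27 on Con1 to Con4. The groups did not overlap, and the DCM arrays spanned only 0.16 while the control arrays spanned 0.38. Over the 7 arrays the means were 2.56 ± 0.083 (SD, n = 3) and 3.14 ± 0.17 (SD, n = 4), a log2 fold change of -0.581 (standard error 0.30, 95% interval -1.24 to 0.080), just short of the fold limit of 0.585 on the log2 scale. Its p was 0.0792 from limma (adjusted p = 0.9996), rank 23 of 438, and 0.0286 in a two-sided exact permutation test, the smallest p that 3 against 4 arrays allow. cfa-miR-145 passed both limits with quantile normalization (-0.62) and without the filter on dim features (-0.76). It measured -0.95 after scaling to the 75th percentile over names detected on all arrays, not past both limits. With normexp correction of median signals, an offset of 50 and quantile normalization together, it was -0.078, again not past both limits. A name with every DCM array below every control array was found in 1.6% of all names on these arrays and in 1.14% on all 8, and cfa-miR-145 was the only member among them.

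On all 8 arrays the log2 fold change of cfa-miR-145 was -0.57 (standard error 0.25, 95% interval -1.11 to -0.036, p = 0.0385 from limma, adjusted p = 0.961; two-sided exact permutation p = 0.0286). With DoCM5 left out in place of DoCM8 it was -0.57 (p = 0.0202 from limma; two-sided exact permutation p = 0.0571). Within the 4 columns of the slide, which each held 1 array of each group, the DCM array was lower by 0.35, 0.71, 0.55 and 0.69 on the glog2 scale. With the column as a block, the p from limma was 0.205 on 7 arrays and 0.0802 on all 8.

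The separation was already present before normalization. The mean signal of the kept features of cfa-miR-145 was 6.82, 6.57, 4.75 and 6.23 on DoCM5 to DoCM8 and 10.75, 8.06, 15.6 and 8.29 on Con1 to Con4, a ratio of the group means of 0.571 (two-sided exact permutation p = 0.0286), and the groups did not overlap. The same held for 1.14% of all names. On 3 of the 4 DCM arrays under 50% of the kept features were above background, so that the size of this ratio and of the fold changes is uncertain. Since the glog2 value of a signal of 0 was higher on DoCM5 than on any other array, the value of 2.54 on that array stood only 0.73 above it, whereas on the other arrays the miRNA stood 1.78 to 2.90 above theirs.

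The 2 probes of cfa-miR-145 gave the same direction but not the same separation. The probe that kept all 20 features lay between 2.70 and 3.05 on the DCM arrays and between 3.15 and 3.74 on the control arrays, a difference of -0.63 over 8 arrays (two-sided exact permutation p = 0.0286). The probe that kept 17 features lay between 1.49 and 2.36 and between 2.29 and 2.71, a difference of -0.47 (two-sided exact permutation p = 0.0857), and its groups overlapped. Both differences are on the glog2 scale.

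**Figure D2:**
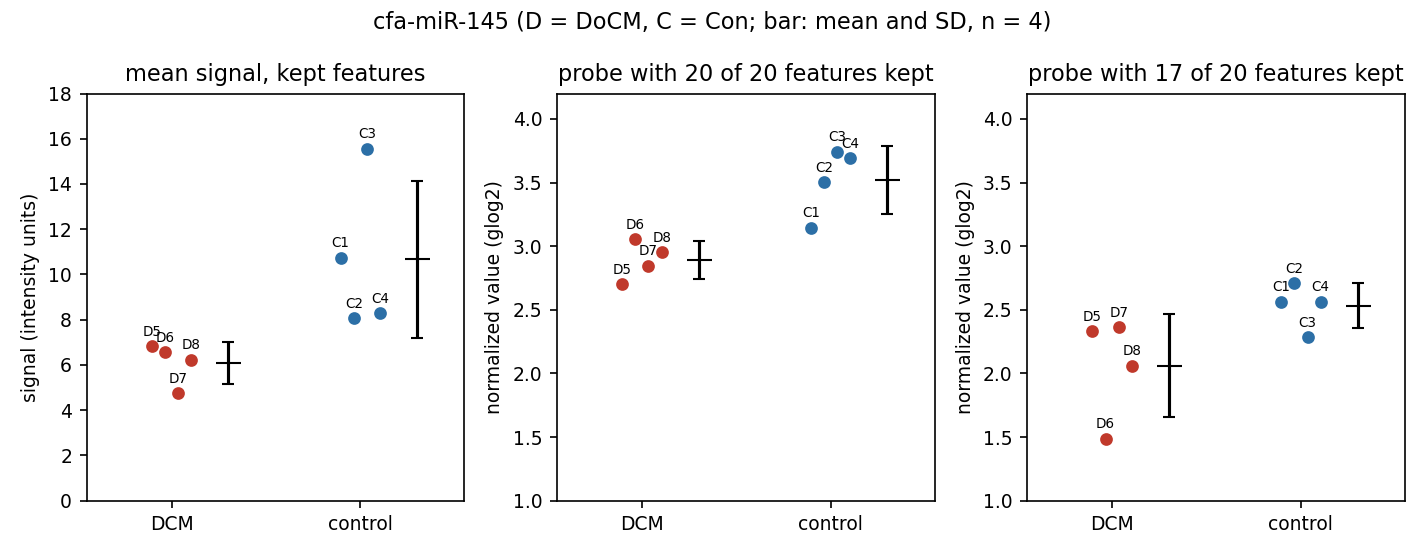
cfa-miR-145 on each array as the mean signal of its kept features before normalization (left, intensity units) and as the glog2 value of each of its 2 probes (centre and right); points are arrays and bars give mean and SD (n = 4). The signal lies between 4.75 and 6.82 in the DCM group and between 8.06 and 15.6 in the control group, and the groups of the probe with 17 kept features overlap.

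cfa-miR-143, the partner of cfa-miR-145, showed no separation of the groups. Its glog2 values were 2.70, 2.45, 3.74 and 3.32 on DoCM5 to DoCM8 and 3.43, 2.62, 2.48 and 2.12 on Con1 to Con4. DoCM7, Con1 and DoCM8 were high, the other arrays were low, and the groups overlapped. The log2 fold change was 0.30 over 7 arrays (standard error 0.42, 95% interval -0.63 to 1.23, p = 0.489 from limma; two-sided exact permutation p = 0.514) and 0.39 over all 8 (p = 0.314 from limma). On the 7 arrays its sign rested on DoCM7. Without DoCM7 the value was -0.083, with only DoCM5 and DoCM6 left in the DCM group.

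cfa-miR-214 had the next largest difference, with overlapping groups. It measured 3.40, 3.19, 4.56 and 4.07 on DoCM5 to DoCM8 and 4.75, 4.24, 3.57 and 4.39 on Con1 to Con4. DoCM5, DoCM6 and Con3 were low and DoCM7 stood among the controls, so that the log2 fold change of -0.52 (standard error 0.42, 95% interval -1.45 to 0.40, p = 0.242 from limma; two-sided exact permutation p = 0.257) lay within 1 SD of the DCM arrays, 0.74 (n = 3). Without DoCM7 it was -0.94 and passed both limits, but only DoCM5 and DoCM6, the lowest arrays, then remained in the DCM group. On all 8 arrays it was -0.43 (two-sided exact permutation p = 0.257).

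The canine and the murine miR-199 names both had overlapping groups. cfa-miR-199 had glog2 values of 4.11, 4.15, 5.19 and 5.02 on DoCM5 to DoCM8 and of 5.50, 4.56, 4.23 and 4.30 on Con1 to Con4. mmu-miR-199a-3p had values of 5.00, 4.91, 6.02 and 5.71 on DoCM5 to DoCM8 and of 6.25, 5.58, 5.10 and 5.23 on Con1 to Con4. In both names Con1 was the highest array and DoCM7 the second highest, and the lowest arrays were DoCM5 and DoCM6. Before normalization DoCM5 had the second highest mean signal in both names, 34.8 and 69.4, after Con1 with 56.3 and 93.0.

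The log2 fold change of cfa-miR-199 was -0.17 over 7 arrays (standard error 0.42, 95% interval -1.09 to 0.75, p = 0.701 from limma; two-sided exact permutation p = 0.629) and -0.031 over all 8 (p = 0.937). That of mmu-miR-199a-3p was -0.23 (standard error 0.41, 95% interval -1.12 to 0.66, p = 0.585 from limma; two-sided exact permutation p = 0.6) and -0.13 over all 8 (p = 0.723). These intervals leave room for a log2 fold change beyond the limit of 0.585 in both directions, and the sign of both turned when Con1 was left out, to 0.12 and 0.0083. The 7 arrays thus did not resolve a direction for miR-199.

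In all, 4 of the 5 detected members had a lower mean in DCM in both sets of arrays, with a median log2 fold change of -0.23 on 7 arrays and -0.13 on all 8. Over all 438 names, 216 were lower on 7 arrays and 219 on all 8, and the medians were 0.0016 and -0.00067. The 3 members of the miR-199 and miR-214 cluster correlated with each other over the arrays, so the count of 4 is a description.

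**Figure D3:**
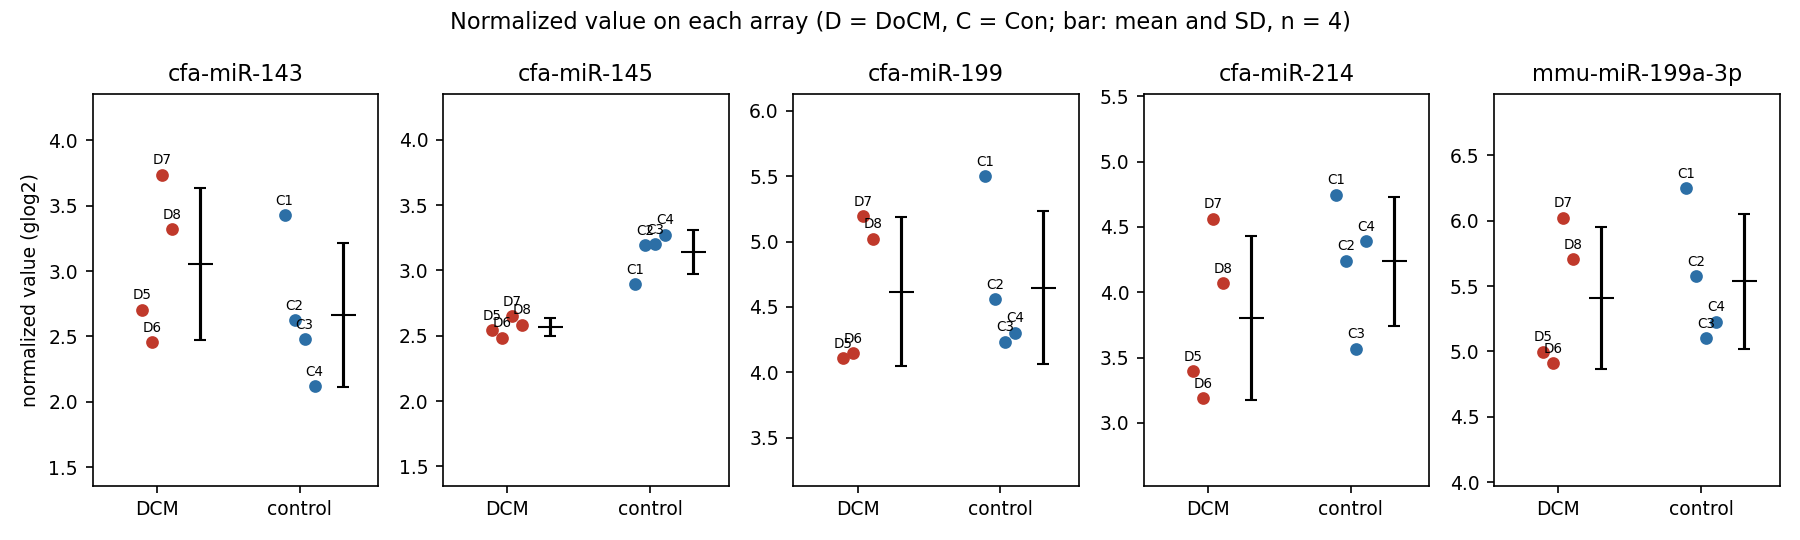
Normalized glog2 value of the 5 detected members on each array (points, labelled D for DoCM and C for Con; the 5 vertical axes span the same range of 3 units at different levels), with mean and SD of each group (n = 4). The DCM arrays lie below the control arrays for cfa-miR-145, between 2.49 and 2.65 against 2.89 and 3.27, and the groups overlap for the other members.

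**Figure D4:**
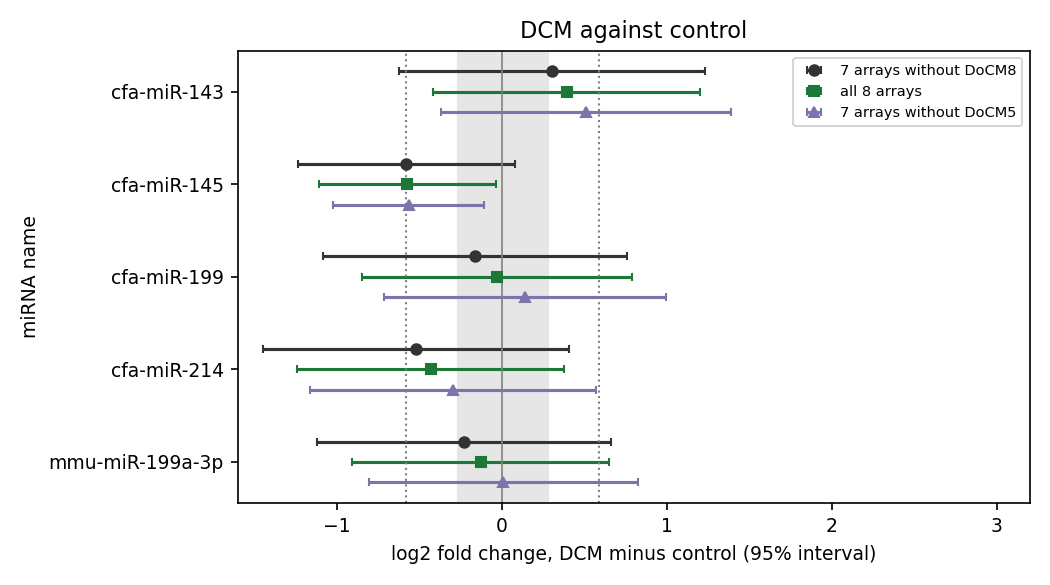
Log2 fold change of DCM minus control with its 95% interval from limma for the 5 detected members, over the 7 arrays without DoCM8, all 8 arrays and the 7 arrays without DoCM5; the dotted lines mark the fold limit and the grey band holds the middle 50% of all 438 names (7 arrays without DoCM8, from -0.27 to 0.28). cfa-miR-145 lies between -0.58 and -0.57 in the 3 sets and its interval leaves out 0 in the sets with DoCM8, while the intervals of the other members include 0.

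The third question was whether the partners of a cluster varied together over the dogs. All 8 arrays were used, since 4 arrays of a group are too few for a correlation, and 10 pairs were computed, 4 of the planned pairs and 6 added once the detected names were known, with adjustment over the 10; under alternatives, a pair passed at an unadjusted p under 0.05. Over all 95703 pairs of detected names the median Pearson correlation was -0.025, with quartiles of -0.41 and 0.40.

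For cfa-miR-143 and cfa-miR-145 no shared variation was found with 8 arrays. Their Pearson correlation was -0.46 (exact permutation p = 0.237, adjusted 0.339) and Spearman's rho was -0.29 (exact permutation p = 0.501). It was -0.55 without DoCM7 and Con1, the 2 arrays farthest from the median of cfa-miR-143, and -0.36 with the group means removed. The sign depended on the processing, with 0.47 after scaling to the 75th percentile over names detected on all arrays and 0.026 when 1 array well above background sufficed to keep a feature. Because the groups lie apart in cfa-miR-145, the pooled value mixes the difference between groups with the variation among dogs. The order of the arrays differed between the groups: by both miRNAs the DCM arrays ran from DoCM6 through DoCM5 and DoCM8 to DoCM7, whereas the control arrays ran from Con4 through Con3 and Con2 to Con1 by cfa-miR-143 and the reverse way by cfa-miR-145. This difference in order was not tested. By cfa-miR-145 the DCM arrays lay within a glog2 span of 0.16. Before normalization its mean signal in the DCM group was lowest on DoCM7, 4.75, and highest on DoCM5, 6.82. In the control group it was lowest on Con2, 8.06, and highest on Con3, 15.6.

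cfa-miR-199 and cfa-miR-214 varied together, with a Pearson correlation of 0.80 (exact permutation p = 0.0238, adjusted 0.0476) and a Spearman's rho of 0.88 (exact permutation p = 0.00724, adjusted 0.0241). With the group means removed the Pearson correlation was 0.87. It fell to 0.58 (exact permutation p = 0.243) without DoCM7 and Con1, the highest arrays for both, so that the call rested on these arrays. A correlation as high as 0.80 was found in 6.0% of all pairs of detected names. The murine listing gave a like value: mmu-miR-199a-3p and cfa-miR-214 correlated at 0.88 (exact permutation p = 0.00665, adjusted 0.0284; rho 0.90, exact permutation p = 0.00456), at 0.91 with the group means removed, and at 0.78 (exact permutation p = 0.0681) without DoCM5 and DoCM6. When features were summarised by their median, it was 0.63 and no longer passed. A correlation as high as 0.88 was found in 3.02% of all pairs of detected names.

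The closest pair was that of the miR-199 listings. cfa-miR-199 and mmu-miR-199a-3p correlated at 0.98 (exact permutation p = 4.96e-05, adjusted 0.000496; rho 0.98, exact permutation p = 0.000397). Without DoCM7 and Con1 the value was 0.94 (exact permutation p = 0.00278), and with the group means removed it was 0.99. Only 0.0805% of all pairs were as high. Probes for the same or a similar target may read the same RNA, and the probe sequences were not used here.

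Across the clusters, cfa-miR-143 varied with both miR-199 names; whether it did so more than with cfa-miR-145 was not tested. It correlated at 0.88 with cfa-miR-199 (exact permutation p = 0.00851, adjusted 0.0284; rho 0.67, exact permutation p = 0.0831) and at 0.83 with mmu-miR-199a-3p (exact permutation p = 0.0144, adjusted 0.0361; rho 0.74, exact permutation p = 0.0458, adjusted 0.115). Of all pairs of detected names, 3.05% and 4.80% had correlations as high as these. Without DoCM7 and Con1 the 2 correlations were 0.76 (exact permutation p = 0.111) and 0.60 (exact permutation p = 0.215). Neither passed the test on the 6 arrays left. With each array left out in turn they lay between 0.86 and 0.91 and between 0.79 and 0.87, and with the group means removed they were 0.96 and 0.96. When features were summarised by their median, the first was 0.52 and no longer passed the test. With cfa-miR-214 the correlation of cfa-miR-143 was 0.52 (exact permutation p = 0.186; rho 0.50, exact permutation p = 0.216) and -0.0076 without the same 2 arrays, but 0.79 and past the limit with the group means removed, so that its call depended on this choice.

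For cfa-miR-145 no correlation with the miR-199 and miR-214 names passed the test on the vsn values, whereas that with cfa-miR-214 was 0.73 and passed after scaling to the 75th percentile over names detected on all arrays. Its Pearson correlations were -0.12 with cfa-miR-199 (exact permutation p = 0.768), 0.36 with cfa-miR-214 (exact permutation p = 0.357) and 0.012 with mmu-miR-199a-3p (exact permutation p = 0.978), and its rho values were 0.26, 0.52 and 0.29 (exact permutation p from 0.197 to 0.536). Its values spanned 0.79 over the 8 arrays, against 1.34 to 1.62 for the other detected members and a median of 1.51 over all names. The correlation of each member with the brightness of the array before normalization ran from -0.55 to -0.098 (exact permutation, adjusted p from 0.594 to 0.811; Spearman's rho from -0.52 to -0.071).

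**Figure D5:**
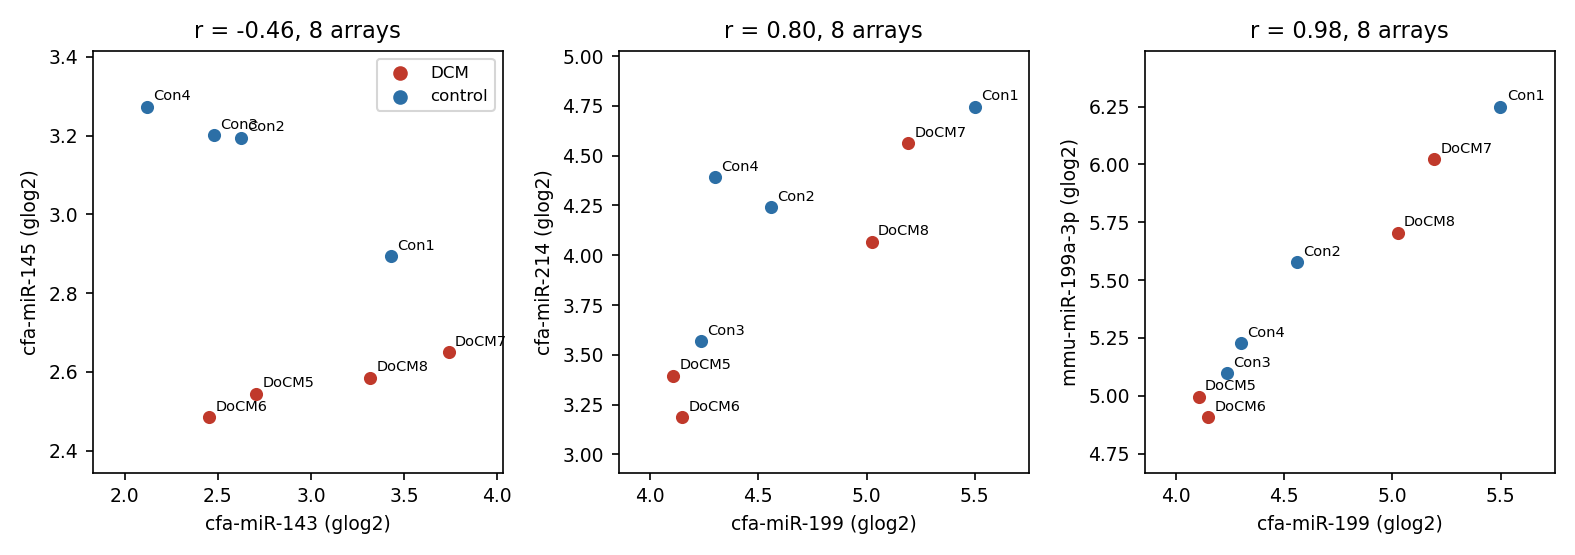
Glog2 values of 3 pairs of miRNAs on the 8 arrays (points, coloured by group): cfa-miR-145 against cfa-miR-143, cfa-miR-214 against cfa-miR-199, and mmu-miR-199a-3p against cfa-miR-199. The first pair shows the groups apart in cfa-miR-145 and a correlation of -0.46, the second one of 0.80 with DoCM7 and Con1 at the upper end, and the third one of 0.98.

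Among the other detected names, those most like the mean of cfa-miR-143 and cfa-miR-145 over the 8 arrays were cfa-miR-497 (Pearson correlation 0.86), mmu-miR-497 (0.84) and cfa-miR-205 (0.83). In this mean cfa-miR-143, which spanned 1.62 against 0.79 for cfa-miR-145, has the larger part. Those most like the mean of the 3 detected miR-199 and miR-214 names were cfa-miR-205 (0.87), cfa-miR-22 (0.84) and cfa-miR-497 (0.82). These were picked as the highest of 438 names and are given without a test.

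Other miRNAs that smooth muscle cells and fibroblasts are known to express, a list of 18 miRNAs with 22 names on the array, were detected in serum for 17 of the names. On the 7 arrays 0 of the 17 passed both limits, where 2.51% of all 438 names did, and their median log2 fold change was -0.066. On all 8 arrays, where 3.88% of all names passed, 1 of the 17 did, cfa-miR-21, a miRNA raised in activated fibroblasts of the heart, which measured 10.09 ± 0.26 (SD, n = 4) against 9.41 ± 0.25 (SD, n = 4) in the healthy dogs and was thus higher by 0.68 on the log2 scale (standard error 0.27, adjusted p = 0.961 from limma). On the 7 arrays its difference was also 0.68 (standard error 0.32), with a p from limma above the limit. The median over the 17 names was -0.0025 on all 8 arrays. cfa-miR-133a, cfa-miR-204, cfa-miR-31, mmu-miR-31 and mmu-miR-100 were not detected.

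Serum also carries miRNAs of blood cells. All 4 erythrocyte names were detected, and among them only the canine and murine listings of miR-144 passed both limits, 1 of the 4 names on 7 arrays and 2 on all 8, against 2.51% and 3.88% of all 438 names. The planned miR-486 had no name among those analysed, and 2 of the 4 names are listings of miR-144. Over the 4 names, the mean glog2 value was 11.82 to 12.34 on the DCM arrays and 11.12 to 11.78 on the control arrays. The median log2 fold change of the 4 names was 0.31 on 7 arrays and 0.40 on all 8. Of them mmu-miR-144 passed both limits on 7 arrays, at 0.81 (adjusted p = 0.9996 from limma), and cfa-miR-144 and mmu-miR-144 did on all 8, at 0.76 and 0.98 (adjusted p = 0.961 and 0.875 from limma), while cfa-miR-451 differed by -0.019 and cfa-miR-16 by 0.021 on 7 arrays. The direction of the miR-144 names was opposite to that of cfa-miR-145, and the part of erythrocytes in its difference was not tested.

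The remaining lists are read against the same shares of all names, 2.51% on 7 arrays and 3.88% on all 8, and with 3 to 8 names each a count of 0 says nothing about a list. Among 7 leukocyte names, all detected, mmu-miR-142-3p passed both limits in both sets of arrays, at 1.23 on 7 arrays and 1.28 on all 8 (adjusted p = 0.9996 and 0.456 from limma). The leukocyte list as a whole had a median log2 fold change of 0.13 on 7 arrays and 0.041 on all 8, with 2 and 3 of its 7 names lower, among them cfa-miR-223 at -0.36 and mmu-miR-223 at -0.43 on 7 arrays. Of the 5 platelet and endothelial names, 3 of which also stand in the smooth muscle and fibroblast list, 0 passed, and their mean glog2 value was 5.96 to 7.18 in the DCM group and 6.17 to 6.51 in the healthy dogs. Of 8 heart and skeletal muscle names, 5 were detected, and mmu-miR-208a-5p passed on 7 arrays only, at -1.19, and was at -0.84 on all 8 (adjusted p = 0.9996 and 0.961 from limma). The other detected names of this list did not pass, with cfa-miR-499 at 0.61, cfa-miR-1 at 0.44, cfa-miR-206 at 0.034 and cfa-miR-133b at -0.42 on 7 arrays, and the median of the 5 was 0.034 on 7 arrays and -0.13 on all 8. cfa-miR-133a, cfa-miR-208a and cfa-miR-208b were not detected. The 3 liver names were detected and 0 passed.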

How the data were processed

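Serum RNA of 8 dogs was measured on 8 one-colour Agilent arrays. The authors deposited an intensity per feature from Agilent Feature Extraction 10.7.3.1, with the background subtracted and no normalization between arrays, and a value table equal to it on all 8 arrays. After this subtraction low intensities lay around 0, with a probe mean as low as -1.19 for mmu-miR-214* on DoCM5. The number of arrays limits the precision.

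Control features and features flagged as outliers were left out. Features well above background on 2 or more of the 4 arrays of either group were kept (13423 of 48960). The mean signal per miRNA name was normalized with an own implementation of the vsn model named in the methods (quantile 0.9, 5 slices, 7 iterations), fitted to 8 arrays. The 438 detected names were compared with limma 3.58.1 in R 4.3.3 on 7 arrays without DoCM8, with limits of 0.05 for p and 1.5 for the fold change, and of 0.05 for p adjusted by Benjamini-Hochberg. Single members were compared by exact permutation over all splits, and correlations over all 40320 pairings. Scripts were tested on simulated data. Values per array were handled with pandas 2.3.3, numpy 2.4.6 and scipy 1.17.1, and figures drawn with matplotlib 3.10.9. Labels do not say more of the replicates than that each is a serum sample of 1 dog.

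The text names every member, the star names of the same hairpins, the 3 names most like each cluster, and list members past both limits or not detected. The members and lists were chosen with earlier results of these data known. Pairs with names not analysed here or not detected were not computed. The planned normexp correction was run on median signals with an offset of 50 and followed by quantile normalization, so this setting changed several choices at once. Gene neighbours came from the table of UU_Cfam_GSD_1.0, in which 4 of 4 canine members had a gene. Coordinates and sequences were not used here.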

Additional observations from a re-analysis of the deposited data

How the results depend on the processing

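The choices varied were the set of arrays, signal column, normalization, filter, averaging, test and slide column, and every array was also left out once. One normalization, relative to the dimmer detected names, and 6 of the 10 pairs were chosen after seeing the data. DCM arrays are numbered 5 to 8 and control arrays 1 to 4, so replicate numbers match no arrays across the groups; arrays were matched by slide column only, and with the column as a block the number past both limits stayed 0. The number of detected members was 5 or 6 in all settings run. The number past both limits was 0 except for 1 with quantile normalization and 1 without the filter on dim features (cfa-miR-145 in both, at -0.62 and -0.76), and with each array left out it ran from 0 to 1 (cfa-miR-214 without DoCM7).

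The log2 fold change of cfa-miR-145 stayed negative in 25 of 25 alternatives, from -0.95 to -0.078, and from -0.66 to -0.54 with each array left out. That of cfa-miR-214 also stayed negative, from -0.94 to -0.11, and from -0.94 to -0.26 with each array left out. cfa-miR-143 turned to -0.098 with the 75th percentile over names detected on all arrays, and ran from -0.083 to 0.56 with each array left out. cfa-miR-199 turned to 0.14 with DoCM5 left out in place of DoCM8 and to 0.073 with the 75th percentile over all names, and ran from -0.52 to 0.12 with each array left out. mmu-miR-199a-3p turned to 0.0074 and 0.077 under the same 2 settings and ran from -0.59 to 0.0083.

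The correlation of cfa-miR-143 and cfa-miR-145 turned to 0.47 with the 75th percentile over names detected on all arrays and to 0.026 with 1 array well above background, and ran from -0.70 to -0.26 with each array left out. That of cfa-miR-199 and cfa-miR-214 ran from 0.72 (without Con1, no longer past the limit of an unadjusted exact permutation p under 0.05, used for all correlations here) to 0.93. cfa-miR-145 with cfa-miR-199 turned to 0.44 with the 75th percentile over names detected on all arrays and ran from -0.34 to 0.012 with each array left out. cfa-miR-145 with cfa-miR-214 turned to -0.043 with the median over features and -0.043 with group means removed. It rose to 0.73, past the limit, with the 75th percentile over names detected on all arrays, and ran from 0.135 to 0.58 with each array left out. cfa-miR-143 with cfa-miR-214 passed the limit at 0.79 with the 75th percentile over names detected on all arrays and at 0.79 with group means removed. It ran from 0.39 to 0.81 with each array left out. With the median over features, cfa-miR-143 with cfa-miR-199 at 0.52 and cfa-miR-214 with mmu-miR-199a-3p at 0.63 no longer passed it. cfa-miR-145 with mmu-miR-199a-3p turned to -0.26 with the 75th percentile over all names, -0.28 with the median over features, -0.086 without the filter, -0.076 with at least 50% of the features kept, -0.11 with 1 array well above background and -0.33 with group means removed, and ran from -0.25 to 0.16 with each array left out. The cause of these changes was not tested. As to signal over background, mmu-miR-199a-5p kept 0 features, and cfa-miR-143 and cfa-miR-145 had under 50% of their kept features above background on 3 arrays each.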
